A study of Homo sapiens with 6 samples.

Results

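Notch signalling genes were examined in LA1-55n cells, a human neuroblastoma line, in which an induced hairpin against glycine decarboxylase (shGLDC99) was compared with an induced hairpin against GFP (shGFP). The genes are 10 chosen by name: the ligands JAG1, DLL1 and DLL3, the receptors NOTCH2 and NOTCH3, and the genes listed as targets, NRARP, HES5, HES6, HEY1 and HEY2. HES6 is grouped with the targets by family, and whether it is one in these cells was not tested. All 10 were found, each with 1 annotated probe set, among the 14779 genes that the 6 Affymetrix Human Gene 2.0 ST arrays measured under a name. Both populations carry a teton (tetracycline-inducible) hairpin and both were kept in 0.5 µg/ml doxycycline for 7 days, so the drug and hairpin induction are common to the groups, and the labels name the hairpin's target as what differs. With 1 hairpin per group, lower GLDC cannot be told apart from other effects of shGLDC99 or from a difference between the lines. Each group has 3 arrays, lettered a, b and c and described as independent. The sources used here do not say whether they came from separate cultures or whether the lines are clones, so p-values measure only the spread between these samples.

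Notch receptors are membrane proteins that are activated by ligands of the Jagged and Delta families on a neighbouring cell. Ligand binding lets ADAM proteases and then gamma-secretase cut the receptor, and the freed intracellular part joins the DNA-binding protein RBPJ and a Mastermind coactivator in the nucleus. Classic outputs are the HES and HEY repressors, which hold back proneural factors in neural precursors, and NRARP, a small ankyrin-repeat protein that limits the pathway. In neuroblastoma, Notch receptors and their coactivators are known as part of the mesenchymal cell state.

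Values are the deposited intensities, read as log2, and differences are shGLDC99 minus shGFP. A gene is said to have risen or fallen where limma's p was under 0.05 after Benjamini-Hochberg adjustment across the 14779 genes tested. The GLDC transcript itself was at 7.85, 7.90 and 7.81 in shGFP arrays a, b and c and at 5.98, 5.65 and 5.93 in the shGLDC99 arrays, a difference of -2.00 ± 0.10 (SE; limma adjusted p = 0.00101). Arrays of a group correlated at 0.993 to 0.994 over 31135 probe sets, arrays of different groups at 0.988 to 0.990, and array medians lay between 4.28 and 4.33. Among sympathetic neuroblast markers, HAND2 was at 7.98 in shGFP and 8.06 in shGLDC99 cells and PHOX2A at 7.30 and 7.10, above the median gene level of 5.09, while 4 markers that fell are given with the marker lists. DBH, the noradrenaline-making enzyme, was below that median at 4.45 and 4.59, and so was HAND1 at 3.83 and 3.89. Levels are of different probe sets and are not compared between genes.

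The 10 chosen genes were mostly lower in shGLDC99 cells on the ligand and receptor side, with a smaller and mixed picture among the outputs. JAG1, NOTCH2, NOTCH3 and NRARP fell, 0 of the 10 rose, and 6 were not past the threshold. Without shGFP b, shGFP c, shGLDC99 b or shGLDC99 c, 2 of the 10 (JAG1 and NOTCH2) fell. Across all genes 4.8% fell and 3.72% rose. With limma and no adjustment, 6 of the 10 were lower and 1 higher at p under 0.05, a cut at which 13.2% of all genes were lower and 11.1% higher; the unadjusted counts given below are to be read against these shares. In all 10 genes the shGLDC99 arrays did not overlap the shGFP arrays, 7 lying lower and 3 higher, whereas over all genes 16.3% lay wholly lower and 14.5% wholly higher. The genes were picked with earlier results of these arrays known, so these counts describe them and are no independent evidence about the pathway. For each of the 10, an exact two-sided permutation test on its 6 values gave p = 0.1, the smallest that 3 against 3 arrays allow. The median difference of the 10 was -0.29, against -0.01 over all genes.

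**Figure D1:**
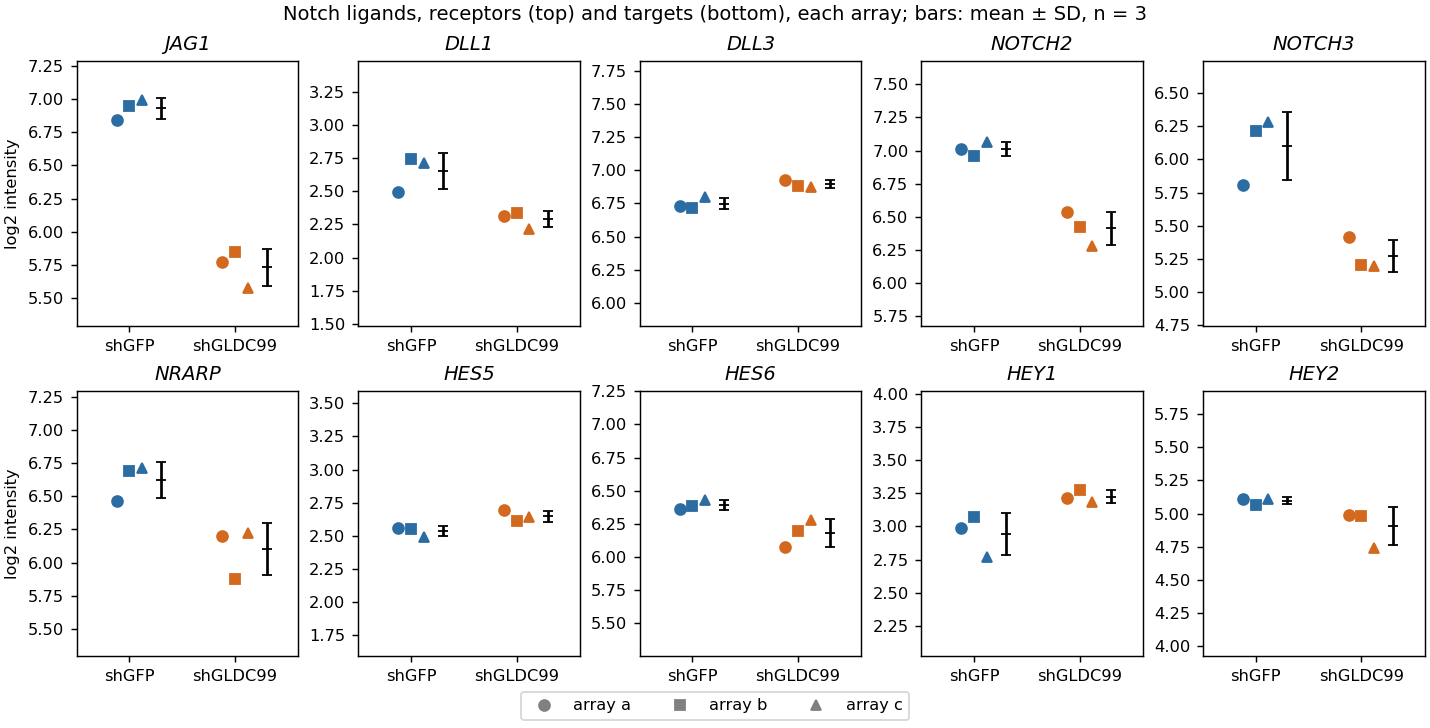
Log2 intensity of each of the 10 Notch genes on each array; circles, squares and triangles are arrays a, b and c, blue is shGFP, orange is shGLDC99, and the black bar is the mean ± SD (n = 3). Every panel spans the same 2 log2 units around its own centre, so that the drop of JAG1 from 6.93 to 5.73 can be set against the small shifts of DLL3 and HES5.

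JAG1, the Jagged ligand that signals to Notch on neighbouring cells, changed most. Its values were 6.84, 6.95 and 7.00 in shGFP arrays a, b and c and 5.77, 5.85 and 5.58 in shGLDC99 arrays a, b and c. The lowest shGFP array thus stood about a whole log2 unit above the highest shGLDC99 array. The difference was -1.20 ± 0.0903 (SE), or 2.30-fold lower (limma adjusted p = 0.00222), and it ranked 13 from the lowest among 14779 genes. JAG1 stayed past the threshold without any 1 of the 6 arrays, with differences from -1.26 to -1.12.

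The Delta ligands did not pass the threshold, and they lay on opposite sides of 0. DLL1, a Delta ligand of neural and somitic precursors, was at 2.49, 2.74 and 2.71 in shGFP and at 2.31, 2.34 and 2.22 in shGLDC99 arrays. Array a was the lowest of the shGFP arrays and came nearest to the shGLDC99 values. The difference was -0.36 ± 0.0872 (SE; limma adjusted p = 0.0522), but a level at percentile 10.6 of all genes is not shown to exceed background. Without shGFP array a the difference was -0.44 and past the threshold (limma adjusted p = 0.0446). The annotated span of DLL1 overlaps that of FAM120B, whose own probe set differed by 0.21, in the opposite direction.

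DLL3, an atypical Delta protein that acts inside its own cell to restrain Notch, was at 6.73, 6.72 and 6.80 in shGFP and at 6.93, 6.88 and 6.87 in shGLDC99 arrays. The groups were close but did not overlap. The difference of 0.14 (95% interval -0.00 to 0.29; limma adjusted p = 0.210) is small beside the fall of JAG1. It kept its direction and stayed short of the threshold in each alternative setting tried.

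Both receptors fell. NOTCH3 was at 5.81, 6.22 and 6.29 in shGFP arrays a, b and c, and at 5.41, 5.21 and 5.20 in shGLDC99 arrays. In each group array a lay nearest to the other group, yet the groups did not overlap. The difference was -0.83 ± 0.139 (SE), or 1.78-fold lower (limma adjusted p = 0.0182). Its SE was the largest of the 10 genes. It was no longer past the threshold without shGFP b, shGFP c, shGLDC99 b or shGLDC99 c (adjusted p = 0.0653, 0.0610, 0.0655 and 0.0685), while the differences without any 1 array ran from -0.98 to -0.74.

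NOTCH2, a receptor with broad expression, was at 7.01, 6.96 and 7.07 in shGFP and at 6.54, 6.42 and 6.28 in shGLDC99 arrays. The shGFP arrays lay close together and all of the shGLDC99 arrays lay clearly under them. The difference was -0.60 ± 0.0832 (SE), or 1.52-fold lower (limma adjusted p = 0.0104), and it passed the threshold without any 1 array. NOTCH2 has near-identical partial copies, the NOTCH2NL genes, and how far the probes separate them is not known here. The probe set of NOTCH2NLA was also lower, by a difference of -0.30 that was not past the threshold (limma adjusted p = 0.0563).

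**Figure D2:**
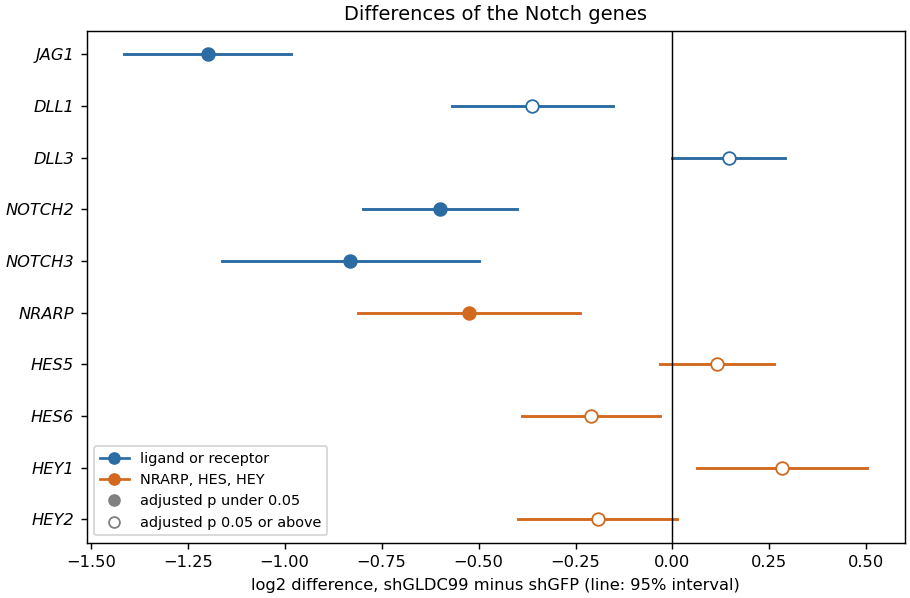
Log2 difference (shGLDC99 minus shGFP, horizontal axis) of each Notch gene with its unadjusted 95% interval from the limma model; blue marks ligands and receptors, orange marks NRARP, HES and HEY genes, and filled points have an adjusted p under 0.05. JAG1 lies farthest left at -1.20, NRARP is the filled orange point at -0.52, and the HES and HEY genes lie between -0.21 and 0.28.

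Among the targets, NRARP fell and the HES and HEY genes did not pass the threshold in either direction. NRARP binds the Notch intracellular part and RBPJ and feeds back on the pathway that induces it. It was at 6.47, 6.69 and 6.72 in shGFP arrays a, b and c, and at 6.20, 5.88 and 6.22 in shGLDC99 arrays. Array b was the lowest of the shGLDC99 arrays, and arrays a and c of that group lay nearer to shGFP array a, the lowest control. The difference was -0.52 ± 0.120 (SE), or 1.44-fold lower (limma adjusted p = 0.0455), close to the threshold. Whichever of the 6 arrays was left out, in either group, NRARP was not past it (adjusted p from 0.0646 to 0.132), with differences from -0.60 to -0.41.

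HES6, a HES relative that opposes HES1 and favours neurogenesis, was at 6.36, 6.38 and 6.43 in shGFP and at 6.07, 6.20 and 6.28 in shGLDC99 arrays. The difference was -0.21 (95% interval -0.39 to -0.03; limma adjusted p = 0.142). HEY2, a repressor best known from vessels and heart, was at 5.11, 5.07 and 5.11 in shGFP and at 4.99, 4.98 and 4.74 in shGLDC99 arrays. Its shGLDC99 array c stood below the other arrays of that group. The difference was -0.19 (95% interval -0.40 to 0.01; limma adjusted p = 0.233).

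HES5, the HES repressor most closely tied to Notch in neural precursors, and HEY1 were the outputs on the higher side. HES5 was at 2.56, 2.56 and 2.49 in shGFP and at 2.70, 2.61 and 2.64 in shGLDC99 arrays, a difference of 0.11 (95% interval -0.03 to 0.26; limma adjusted p = 0.319). HEY1 was at 2.98, 3.07 and 2.77 in shGFP and at 3.21, 3.28 and 3.18 in shGLDC99 arrays, a difference of 0.28 (95% interval 0.06 to 0.50; limma adjusted p = 0.115). Their levels lay at percentiles 12.2 and 19.1 of all genes. Neither is shown to exceed background, which limits what a small difference in either direction shows.

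The ligand and receptor genes and the target genes were set side by side as groups. Of 5 ligands and receptors, 3 fell, and their median difference was -0.60. Of 5 targets, 1 fell, and their median difference was -0.19. Over all genes 4.8% fell. These counts depend on single arrays: in the 6 fits without 1 array, NOTCH3 was past the threshold in 2 and NRARP in 0. Averaged over genes centred on their own means, the ligands and receptors stood at 0.17, 0.31 and 0.37 in shGFP arrays a, b and c and at -0.21, -0.27 and -0.37 in shGLDC99 arrays. The targets stood at 0.03, 0.09 and 0.04 and at -0.03, -0.08 and -0.05. The groups of arrays separated in both averages and the gap was wider for ligands and receptors. Without NRARP, the 4 HES and HEY genes averaged 0.01, 0.03 and -0.04 in shGFP and 0.00, 0.03 and -0.03 in shGLDC99 arrays. These averages overlapped between the groups, so the separation of the target average rested on NRARP. Taken singly, none of the 4 overlapped between the groups. HES6 and HEY2 lay lower (-0.21 and -0.19) and HES5 and HEY1 higher (0.11 and 0.28), beside 16.3% of all genes wholly lower and 14.5% wholly higher. These opposite shifts offset each other in the average, and HES5 and HEY1 are not shown to exceed background. The difference between the ligand and receptor average and the target average was not tested, since the genes were chosen with results known.

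RefSeq promoter windows, 250 bases before and 50 after the annotated start (build GRCh38.p14), were used for 7 of the 10 genes, which leaves out DLL1, DLL3 and HEY1. For the 10 genes a window had to match by symbol and pass a filter on chromosome, which the shares over all windows did not use. They were searched on both strands for the RBPJ core TGGGAA, the N box CACNAG that HES proteins bind, the E box CACGTG (its own reverse complement, counted once) and the HEY class C site CACGCG. No match overlapped another in these 7 windows. The RBPJ core occurred in HES5 and HEY2, once in each orientation in both, and in 0 of JAG1, NOTCH2, NOTCH3, NRARP and HES6. Of 35116 promoter windows, 24.03% hold the core and 1.78% hold it in both orientations. The HES5 and HEY2 stretches are printed because they carry the core, and NRARP because it is the target that fell. Capitals mark the matched motifs, the RBPJ core in HES5 and HEY2 and the N box in NRARP, and each reads 5′ to 3′ along the gene.
HES5 (chr1:2530329-2530498, minus strand, bases -235 to -66 from the start): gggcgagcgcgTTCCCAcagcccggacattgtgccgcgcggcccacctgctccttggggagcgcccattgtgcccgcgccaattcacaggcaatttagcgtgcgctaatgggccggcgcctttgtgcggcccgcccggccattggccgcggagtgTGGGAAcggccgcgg
HEY2 (chr6:125749412-125749634, plus strand, bases -220 to 3): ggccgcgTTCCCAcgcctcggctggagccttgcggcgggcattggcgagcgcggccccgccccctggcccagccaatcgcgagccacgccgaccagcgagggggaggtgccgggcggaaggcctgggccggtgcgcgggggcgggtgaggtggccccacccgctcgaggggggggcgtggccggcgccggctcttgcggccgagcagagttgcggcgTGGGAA
NRARP (chr9:137302268-137302391, minus strand, bases -120 to 4): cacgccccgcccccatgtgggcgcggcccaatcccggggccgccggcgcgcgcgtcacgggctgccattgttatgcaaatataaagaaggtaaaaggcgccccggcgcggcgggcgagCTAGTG

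In HES5 the core lies at bases -224 to -219 in reverse and at -80 to -75 forward, and in HEY2 at -213 to -208 in reverse and at -3 to 3 forward, counted from the start as base 1 with no base 0. The N box, present in 38.03% of all windows, also occurred in NOTCH2 and NOTCH3. The class C site, present in 11.43%, occurred once in JAG1 and at 2 further places in NRARP. The E box, in 7.26% of all windows, occurred in 0 of the 7. HES6 held none of the 4 motifs. These are matches of letters and do not show binding. The 2 genes with the RBPJ core, HES5 and HEY2, differed by 0.11 and -0.19 and neither passed the threshold.

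Beyond the 10 genes, 66 of 89 listed genes of the pathway were measured. The threshold was passed by 7 of them, 4 lower and 3 higher, beside 4.8% and 3.72% of all genes, and the median difference was -0.04. Without shGFP b, shGFP c or any 1 of the shGLDC99 arrays, 1 rose. Leaving out the dimmest 40% of genes gave 11 lower and 6 higher, and an intensity trend in the model gave 10 and 7. HES1 was not analysed here.

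Among the other 8 ligands and receptors, DLL4, a Delta ligand best known from endothelium, rose and 0 fell, beside 3.72% and 4.8% of all genes. With limma and no adjustment these counts were also 1 and 0. DLL4 was at 3.56, 3.29 and 3.29 in shGFP and at 3.86, 3.85 and 3.98 in shGLDC99 arrays. Array a was the highest of its shGFP group but still under every shGLDC99 array. The difference was 0.52 ± 0.0957 (SE; limma adjusted p = 0.0245), from a level below the median gene level that is not shown to exceed background. The call was lost without shGFP b, shGFP c, shGLDC99 a, shGLDC99 b or shGLDC99 c (adjusted p up to 0.0826). NOTCH1, the prototype receptor, differed by -0.13 (95% interval -0.30 to 0.05; adjusted p = 0.365), NOTCH4 by -0.21 (adjusted p = 0.237) and JAG2 by -0.23 (adjusted p = 0.272). Of the 8 genes, 4 had a negative and 4 a positive difference, with a list median of 0.02. In 0 the shGLDC99 arrays lay wholly lower and in 1 wholly higher, beside 16.3% and 14.5% of all genes. Whether NOTCH1 differed less than NOTCH2 and NOTCH3 was not tested.

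**Figure D3:**
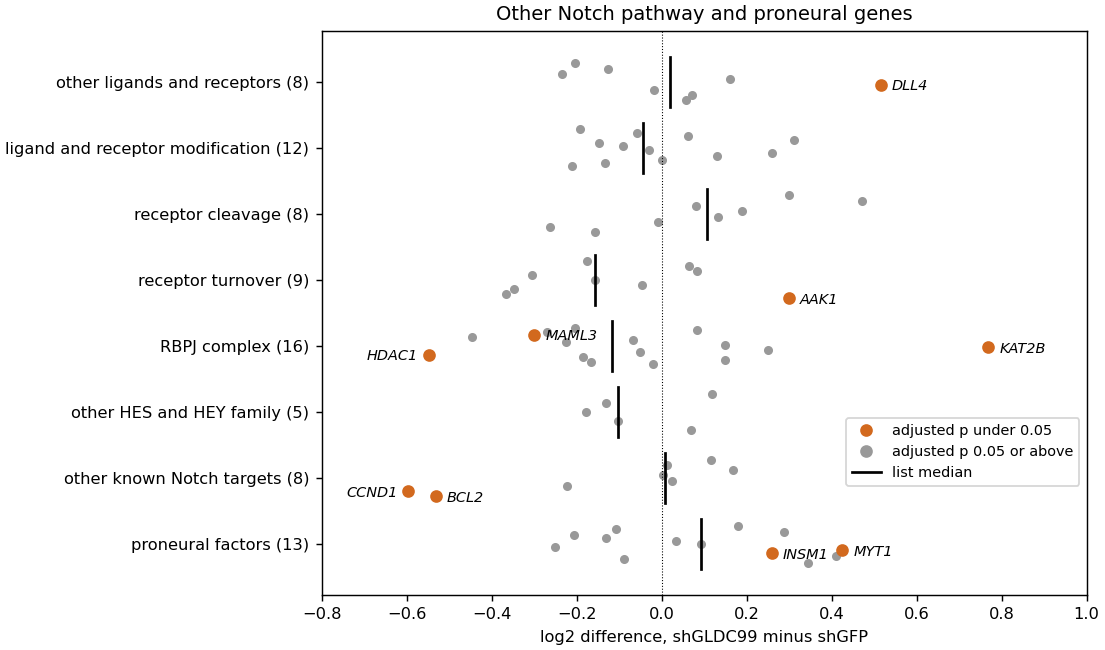
Log2 difference (shGLDC99 minus shGFP, horizontal axis) of each measured gene in the other Notch pathway lists and of proneural genes, with the number measured in brackets; orange points have an adjusted p under 0.05 and black bars are list medians. KAT2B lies farthest right at 0.77 and CCND1 farthest left at -0.60, while most points are grey and the list medians lie between -0.16 and 0.11.

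The machinery that prepares and cuts ligands and receptors had no gene past the threshold. Of 12 genes of receptor glycosylation and ligand endocytosis 0 changed (limma; 2 higher and 0 lower at unadjusted p under 0.05). The nearest were POFUT1, which adds the O-fucose that receptors need, at 0.31 (adjusted p = 0.0511), and MIB1, the ubiquitin ligase that drives ligand endocytosis, at 0.26 (adjusted p = 0.0608). Of 8 genes of receptor cleavage 0 changed (limma; 3 higher and 1 lower at unadjusted p under 0.05). The gamma-secretase subunits PSENEN (0.30, adjusted p = 0.0503) and PSEN2 (0.47, adjusted p = 0.0557) were nearest. In PSENEN, PSEN2, POFUT1 and MIB1 the shGLDC99 arrays lay above all shGFP arrays, and in the receptor proteases ADAM17 (-0.26, adjusted p = 0.0803) and ADAM10 (-0.16, adjusted p = 0.231), named after their values were seen, they lay below. Of the 8 cleavage genes 4 lay wholly higher and 2 wholly lower, and of the 12 others 3 and 0, beside 14.5% and 16.3% of all genes.

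Among 9 genes of receptor turnover, AAK1, a kinase of the endocytic adaptor, rose by 0.30 (limma adjusted p = 0.0425) and 0 fell. Over all genes 3.72% rose and 4.8% fell. With limma and no adjustment, 3 of the 9 were lower at p under 0.05. Leaving out any 1 of the 6 arrays ended the AAK1 call (adjusted p from 0.0807 to 0.124). The Deltex ligases DTX2 and DTX1 differed by -0.35 and -0.37 (adjusted p = 0.0860 and 0.0862). DTX1 is itself a known Notch target.

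In the nuclear complex, HDAC1 and MAML3 fell and KAT2B rose among 16 genes, while 4.8% of all genes fell and 3.72% rose. With limma and no adjustment, 6 of the 16 were lower and 2 higher at p under 0.05, beside 13.2% and 11.1% of all genes. In 7 the shGLDC99 arrays lay wholly lower and in 3 wholly higher, beside 16.3% and 14.5% of all genes. HDAC1, a histone deacetylase of RBPJ corepressor complexes and of many others, was at 8.71, 8.75 and 8.78 in shGFP and at 8.25, 8.17 and 8.18 in shGLDC99 arrays, a difference of -0.55 ± 0.0618 (SE; limma adjusted p = 0.00660). KAT2B, an acetyltransferase, was at 4.97, 4.88 and 4.83 in shGFP and at 5.78, 5.46 and 5.75 in shGLDC99 arrays, a difference of 0.77 ± 0.101 (SE; limma adjusted p = 0.00931), from a shGFP level below the median gene level. Both calls held without any 1 array. MAML3, a Mastermind coactivator, differed by -0.30 (adjusted p = 0.0402), and without any 1 of the 6 arrays it was not past the threshold (adjusted p from 0.0668 to 0.119).

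RBPJ, the DNA-binding partner through which canonical signalling runs, was at 8.44, 8.41 and 8.42 in shGFP and at 8.16, 8.08 and 8.21 in shGLDC99 arrays. All shGLDC99 arrays lay lower, and the difference of -0.27 (95% interval -0.42 to -0.12) just missed the threshold (limma adjusted p = 0.0507). MAML2 differed by -0.45 (adjusted p = 0.0979) on its brighter probe set and by 0.21 on a much dimmer one, so its probe sets disagree in sign.

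Of the other HES and HEY genes 5 were measured and 0 changed (limma; also 0 at unadjusted p under 0.05). HES7, the segmentation clock repressor, differed by -0.13 (adjusted p = 0.370) and HES4 by -0.18 (adjusted p = 0.561). Of 8 other known targets, CCND1 and BCL2 fell and 0 rose, beside 4.8% and 3.72% of all genes. With limma and no adjustment, 3 were lower and 0 higher at p under 0.05. CCND1, a D-type cyclin, was at 8.34, 8.41 and 8.44 in shGFP and at 7.86, 7.74 and 7.80 in shGLDC99 arrays, and BCL2, an inhibitor of apoptosis, was at 8.44, 8.60 and 8.55 and at 8.03, 8.04 and 7.92. These genes answer to many pathways besides Notch. The differences were -0.60 and -0.53 (limma adjusted p = 0.00648 and 0.0103), and both held without any 1 array. CD44 (-0.22, adjusted p = 0.156) and PTCRA (0.17, adjusted p = 0.490) were not past the threshold.

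Genes that HES and HEY repressors are known to hold back, or that follow proneural factors, were also listed. Of 13 measured, 2 rose and 0 fell (limma; 4 higher and 0 lower at unadjusted p under 0.05), with a median of 0.09; over all genes 3.72% rose, and 11.1% were higher without adjustment. MYT1, a zinc finger factor of early neurons, was at 6.10, 6.13 and 6.23 in shGFP and at 6.57, 6.57 and 6.60 in shGLDC99 arrays, a difference of 0.42 ± 0.0654 (SE; limma adjusted p = 0.0138). The MYT1 call was lost without shGFP a, shGFP b, shGLDC99 b or shGLDC99 c (adjusted p up to 0.0555). INSM1, a neuroendocrine factor, differed by 0.26 (adjusted p = 0.0491), and without any 1 of the 6 arrays it was not past the threshold (adjusted p from 0.0912 to 0.129). DCX, a microtubule protein of migrating neurons, differed by 0.41 (adjusted p = 0.116) and ATOH1 by 0.34 (adjusted p = 0.173). The 9 measured bHLH factors of the list all had levels below the median gene level that are not shown to exceed background, and 0 of them passed the threshold (limma; 1, ATOH1, at unadjusted p under 0.05).

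**Figure D4:**
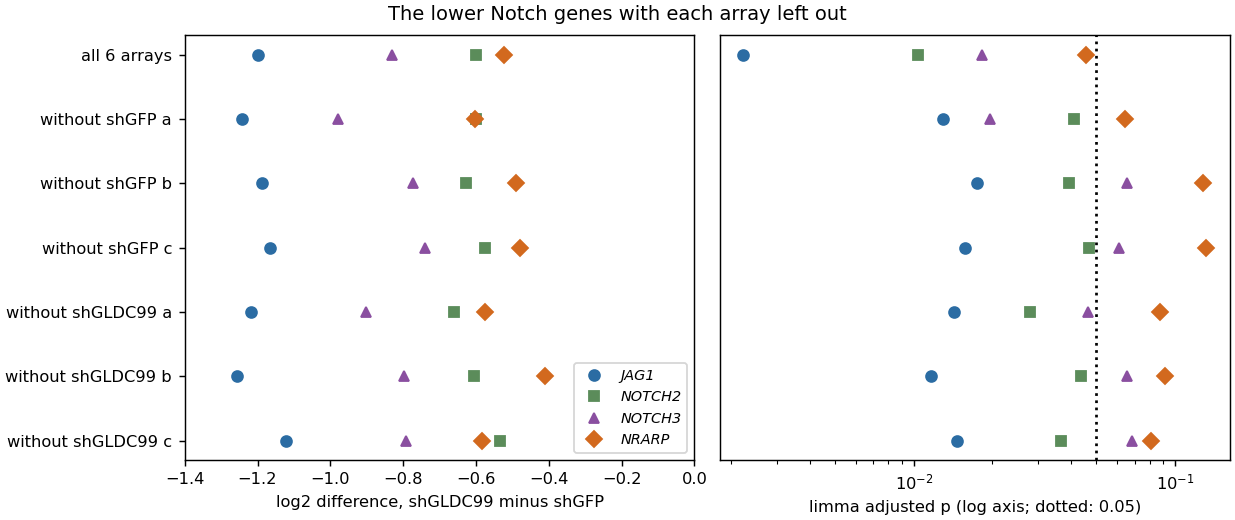
Log2 difference (left) and limma adjusted p on a log axis (right) of JAG1, NOTCH2, NOTCH3 and NRARP with all 6 arrays and with each array left out; the dotted line is an adjusted p of 0.05. JAG1 and NOTCH2 stay left of the line in every row, NOTCH3 lies right of it without shGFP b, shGFP c, shGLDC99 b or shGLDC99 c, and NRARP lies right of it whenever an array is missing.

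Some markers of both neuroblastoma cell states were lower in the shGLDC99 arrays, and most were not past the threshold. Of 13 measured markers of the mesenchymal state, 4 fell and 0 rose, beside 4.8% and 3.72% of all genes, and the list median was -0.03. Those that fell were FN1 (fibronectin, -1.43), YAP1 (-0.97), EGFR (-0.64) and VIM (vimentin, -0.37, with -0.05 on a dimmer probe set). YAP1 fell from a shGFP level of 4.79, below the median gene level. The other 9 included the mesenchymal factors TWIST1 (-0.26, limma adjusted p = 0.0706), PRRX1 (-0.02), WWTR1 (-0.03) and SNAI2 (0.01). Of the 13 markers, 6, TWIST1 and CD44 among them, lay wholly lower and 0 wholly higher, beside 16.3% and 14.5% of all genes. The mean level of the 13 was 5.57 to 5.67 over shGFP arrays and 5.31 to 5.37 over shGLDC99 arrays. Of the 13, 3 (CD44, SNAI2 and SOX9) are also listed as Notch targets. Of 10 sympathetic neuroblast markers 4 fell and 0 rose, against the same shares of all genes, with a list median of -0.11 and a mean level of 6.68 to 6.89 in shGFP and 6.47 to 6.59 in shGLDC99 arrays. The 4 were the transcription factors ISL1 (-1.09, with -0.34 on a dimmer probe set), TBX2 (-0.60), GATA2 (-0.56) and GATA3 (-0.48). Of the 10 markers, 5, PHOX2A (-0.21) among them, lay wholly lower and 1, HAND2, wholly higher, against the same 16.3% and 14.5% of all genes. The part of either cell state in the falls of JAG1, NOTCH2 and NOTCH3 was not tested. In bulk samples, fewer cells of a kind cannot be told apart from less RNA per cell.

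Markers of Schwann and glial cells (4 measured), endothelium (5) and leukocytes (4) had 0 genes past the threshold (limma; 1 leukocyte gene higher at unadjusted p under 0.05). Of 2 fibroblast markers, LUM rose by 0.52 from a level of 3.48, and DCN was at 1.67 and 1.73. In these 4 lists, CD68 was the only gene above the median gene level, and SOX10, the glial marker, was at 4.68 and 4.66. The mean level of the glial list was 3.67 to 3.87 in shGFP and 3.65 to 3.90 in shGLDC99 arrays, of the endothelial list 3.47 to 3.64 and 3.44 to 3.51, of the leukocyte list 3.53 to 3.68 and 3.55 to 3.76, and of the fibroblast list 2.47 to 2.63 and 2.82 to 2.89.

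The genes whose profile over the 6 arrays was most like that of JAG1, by the root mean square difference between values centred on each gene's mean, were VCAN, REST and ZNF385B (0.102, 0.106 and 0.107 log2 units). VCAN, the matrix proteoglycan versican, fell from 8.15 to 7.00, REST, a repressor of neuronal genes, from 6.93 to 5.54, and ZNF385B from 5.30 to 4.27. For NOTCH3 they were ARHGAP17, WBP11P1 and KIF1C (0.0984, 0.109 and 0.117). ARHGAP17, a GTPase-activating protein, was at 8.35 in shGFP and 7.54 in shGLDC99 cells, and KIF1C, a kinesin, at 6.37 and 5.58. With 2 groups of arrays such likeness mostly reflects a similar step between groups and is given as a description.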

How the data were processed

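The submitters' processing notes name Partek, without a version. The deposited values are 1 per probe set and array and were read as log2 intensity: their base is not stated, but the highest, 13.28, exceeds the natural log of the largest 16-bit intensity, 11.09. How the authors corrected background and normalized is not given in the sources used here, and no further normalization was applied. Platform annotation named 15098 of 31135 probe sets (0 with several genes; 16037 unnamed), all matched by Entrez ID; 256 of 14779 genes had more probe sets, of which the brightest on average was used.

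All genes were tested together with limma 3.58.1 in R 4.3.3 (lmFit, eBayes, no covariates), after a test on simulated data, with the data.table package, version 1.17.8; plots used matplotlib 3.10.9, pandas 2.3.3 and numpy 2.4.6. Named genes were the 10, GLDC, and from each pathway list those past the threshold and the 2 next by adjusted p, with HES1, NOTCH1, RBPJ and the 3 genes most like JAG1 and NOTCH3; markers and overlapping or duplicated genes were added after their values were seen. The genes and lists were chosen with earlier results of these data known. The number of arrays limits the precision.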

Additional observations from a re-analysis of the deposited data

How the results depend on the processing

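Every difference of the 10 Notch genes kept its direction under all alternatives: quantile normalization again, centring arrays on their medians, leaving out the dimmest 40% of genes (which drops DLL1, HES5 and HEY1), averaging probe sets, a replicate block, a prior variance that follows intensity, array weights, all 31135 probe sets, and leaving out each array. The number of them that fell was 4, but 3 over all probe sets, 1 with the replicate block and 2 to 4 without 1 array. Without shGFP a the 4 were JAG1, NOTCH2, NOTCH3 and DLL1; centring also exchanged NRARP (adjusted p = 0.0501) for DLL1 (0.0455), and over all probe sets NRARP was not past the threshold (0.0668). With the replicate letter as a block, NOTCH2, NOTCH3 and NRARP had limma adjusted p of 0.0569, 0.0761 and 0.104. Same-lettered arrays did not deviate together (r = -0.0119, 0.0182 and -0.00106), and 2 of 6 arrays correlated best with their own letter, so the letters are not taken to pair the arrays; the cause of the lost calls was not tested.

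Of the other pathway genes, 4 fell and 3 rose; 11 and 6 did without the dimmest genes, 10 and 7 with the trend, 1 and 1 with the block, and 5 rose with array weights; 1 to 3 rose without 1 array. Proneural rises (2) became 1 with centring or all probe sets, 0 with the block and 0 to 1 without 1 array. Over all genes, 709 fell and 550 rose; 1252 and 969 without the dimmest genes, 1350 and 1088 with the trend, 126 and 103 with the block, and 238 to 327 and 207 to 240 without 1 array. Background was not measured on these arrays, which limits DLL1, DLL4, HES5 and HEY1.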
